A study of Mus musculus with 6 samples.

Results

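The 10 genes described here make up the route from citrate to long-chain fatty acids and their double bonds, together with its transcription factor. They were taken by symbol: *Srebf1*, *Acly*, *Acaca*, *Fasn*, *Elovl5*, *Elovl6*, *Scd1*, *Scd2*, *Fads1* and *Fads2*. Each symbol matched 1 of the 54331 Ensembl genes listed, and all 10 were among the 15382 genes whose mean over the libraries reached 1 TPM (a gene's share of all transcripts, corrected for its length), so that every member was tested. In the OSKA + 4OHT group both stearoyl-CoA desaturases among them were higher, *Scd1* by 1.58 and *Scd2* by 1.24 on the log2 scale. *Scd2* passed the test whichever well was left out, and *Scd1* did not pass in most of these fits. The enzymes that build the chain (*Acly*, *Acaca* and *Fasn*) had overlapping values in the 2 groups and did not pass the test.

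The cells were mouse embryonic fibroblasts (MEFs) from male E13.5 embryos, several of them pooled, of an Oct4-EGFP transgenic line on a mixed C57BL/6, DBA/2 and ICR background. All of them received Oct4, Sox2 and Klf4 (OSK) and AKT-MER, a fusion of myristoylated AKT with a modified estrogen receptor, from retroviral vectors. The OSKA + 4OHT group (3 wells) was given 4-hydroxytamoxifen (4OHT), the ligand that switches the fusion protein on, and the OSKA − 4OHT group (3 wells) was mock treated, and RNA was taken at 10 days postinfection (dpi). The comparison asks which transcripts differ when AKT is activated during reprogramming. Since the only treatment that separates the groups is 4OHT, an effect of the ligand and an effect of active AKT cannot be told apart in these libraries, and because the wells were not from separate animals, the p-values measure the spread between wells.

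Fatty acid synthesis starts in the cytosol. ATP citrate lyase (*Acly*) splits citrate into acetyl-CoA, acetyl-CoA carboxylase 1 (*Acaca*) turns it into malonyl-CoA, and fatty acid synthase (*Fasn*) joins these units, at the expense of NADPH, into palmitate. Elongases of the endoplasmic reticulum lengthen the product, the stearoyl-CoA desaturases insert a double bond at the Δ9 position to give palmitoleate and oleate, and the *Fads* enzymes add further double bonds to polyunsaturated chains. Sterol regulatory element-binding protein 1, the product of *Srebf1*, is held in the endoplasmic reticulum by SCAP and the INSIG proteins, is released by proteolysis, and then switches on the genes of the route. AKT is known to phosphorylate ATP citrate lyase and, through mTORC1, to raise the processing of this factor, steps that an RNA level does not show.

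*Scd1* and *Scd2* are paralogs, and how far 50-base reads could separate them bears on every value of the pair. On GRCm38 (GENCODE M21 annotation), *Scd2* lies on the + strand at chr19:44293674-44306864 and *Scd1* on the − strand at chr19:44394455-44407879, with *Scd3* and *Scd4* in the same cluster. The coding sequences of *Scd1* and *Scd2* were identical at 965 of 1068 aligned bases (90.4%), and the longest identical stretch was 147 bases. That stretch is shown with 10 flanking bases on each side, and capitals mark the bases at which the pair differs. A read that falls inside it cannot be given to either gene.
Scd1 coding bases 513 to 679: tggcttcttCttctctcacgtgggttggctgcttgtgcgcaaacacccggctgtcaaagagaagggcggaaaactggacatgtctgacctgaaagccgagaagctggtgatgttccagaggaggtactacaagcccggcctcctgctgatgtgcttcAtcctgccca
Scd2 coding bases 522 to 688: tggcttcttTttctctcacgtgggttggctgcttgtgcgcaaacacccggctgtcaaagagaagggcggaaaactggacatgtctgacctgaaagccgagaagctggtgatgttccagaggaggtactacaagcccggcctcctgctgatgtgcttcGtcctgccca
The median 90-base window of the coding sequence held 5 mismatches, and the first such window shows how the pair is separated elsewhere, again with mismatches in capitals.
Scd1 coding bases 152 to 241: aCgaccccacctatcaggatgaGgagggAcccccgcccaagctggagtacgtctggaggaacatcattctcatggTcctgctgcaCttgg
Scd2 coding bases 161 to 250: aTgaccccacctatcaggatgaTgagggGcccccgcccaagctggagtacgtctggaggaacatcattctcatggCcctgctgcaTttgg
Over the whole annotated transcripts, 3' untranslated parts included, 4.56% of the 50-base words of *Scd1* and 3.97% of those of *Scd2* also occurred in another gene on the same strand.

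The other members shared little sequence at this read length, with 1 exception. *Acly*, *Fasn*, *Elovl5* and *Fads1* shared no 50-base word with another gene, *Fads2* shared 0.152% with *Fads3*, and *Elovl6* shared 3.98%, mostly with the pseudogene *Gm11295*, which was listed at 0 in all 6 libraries. *Acaca* shared 30.4% of its words, nearly all of them with the processed pseudogene *Gm5182*, which was listed at 1.82, 0 and 0.315 TPM in the OSKA − 4OHT wells and at 0, 0 and 0.227 TPM in the OSKA + 4OHT wells. *Srebf1* overlaps *Rai1* on the opposite strand in 1.03% of its words, and the library kit marks strand, although the setting used for counting is not given in the sources used here.

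Among the 10 genes, 2 were higher in the OSKA + 4OHT group at an adjusted p-value under 0.05 (*Scd1* and *Scd2*) and 0 were lower, where 3.52% of all tested genes were higher and 1.97% lower by the same criterion (5.49% in either direction). Both also exceeded an absolute log2 fold change of 1, which 2.87% of all tested genes did while being higher. With 1 well left out, 1 to 2 members were called higher, since *Scd1* did not pass in every such fit. The 3 wells of one group lay wholly above the 3 of the other for *Scd1*, *Scd2* and *Srebf1*, compared with 18.1% of all tested genes that were separated in this direction, and 0 of the 10 genes were separated in the opposite direction (10.0% of all tested genes). The log2 fold change was positive for 8 genes and negative for 2, where 9129 of the 15382 tested genes were positive and 6253 negative. The median of the members was 0.32 beside 0.14 over all tested genes. The calls fell on the Δ9 desaturases *Scd1* and *Scd2*, and the other desaturases among the members, *Fads1* and *Fads2*, were not called.

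**Figure D1:**
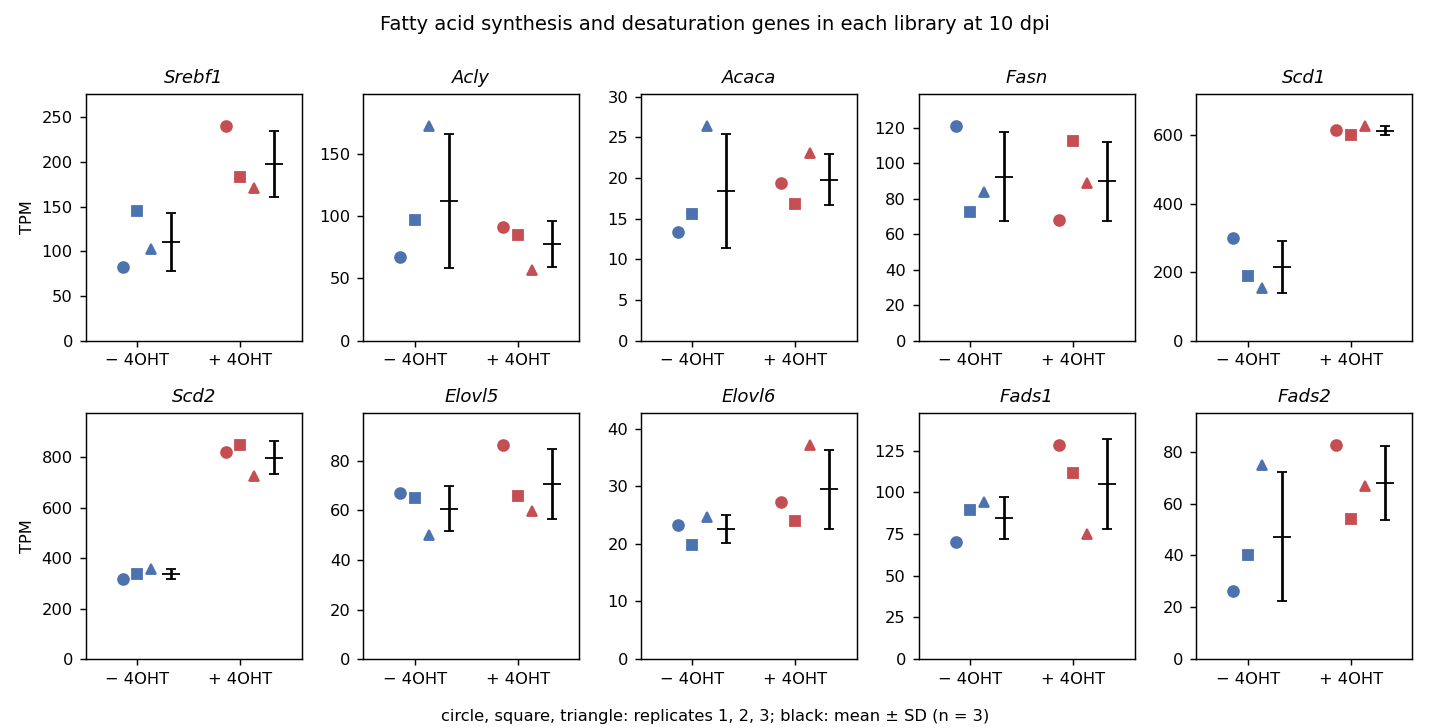
Level of each of the 10 genes in TPM (vertical axis, linear from 0, scaled per gene) in the OSKA − 4OHT (blue) and OSKA + 4OHT (red) groups. Circle, square and triangle are replicates 1, 2 and 3, and black bars give the mean ± SD (n = 3). The groups do not overlap for *Srebf1*, *Scd1* and *Scd2*, and they overlap for the other 7 genes.

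The regulator, *Srebf1* (ENSMUSG00000020538, chr11:60199089-60222581, − strand), was listed at 81.9, 145.6 and 102.8 TPM in the OSKA − 4OHT wells and at 239.9, 182.9 and 170.9 TPM in the OSKA + 4OHT wells. All treated wells were above all mock-treated wells, the nearest of them by 170.9 against 145.6 TPM. The means were 110.1 ± 32.4 and 197.9 ± 36.9 TPM (SD, n = 3), and the log2 fold change was 0.87 ± 0.246 (SE, 95% confidence interval 0.276 to 1.46). In limma-trend its unadjusted p was 0.0111 and its adjusted p was 0.105, so the difference did not pass the test over all genes. The adjusted p stayed between 0.0851 and 0.284 when each well was left out in turn and between 0.0900 and 0.170 under the other settings apart from the replicate block.

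The value of *Srebf1* adds up transcripts from more than 1 start site, so that the isoforms SREBP-1a and SREBP-1c, which begin at different first exons, are not separated in it. RefSeq (GRCm38.p6) gives 3 starts, and the 250 bases before each are shown because the value sums over these starts. Capitals mark matches, on either strand, to the NF-Y box CCAAT and to the Sp1 box GGGCGG.
Srebf1 upstream, chr11:60222582-60222831, − strand: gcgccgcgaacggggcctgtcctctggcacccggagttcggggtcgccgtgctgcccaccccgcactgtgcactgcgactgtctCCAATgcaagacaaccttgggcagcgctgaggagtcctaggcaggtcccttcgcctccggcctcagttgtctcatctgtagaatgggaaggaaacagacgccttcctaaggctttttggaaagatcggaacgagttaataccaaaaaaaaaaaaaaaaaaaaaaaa
Srebf1 upstream, chr11:60220628-60220877, − strand: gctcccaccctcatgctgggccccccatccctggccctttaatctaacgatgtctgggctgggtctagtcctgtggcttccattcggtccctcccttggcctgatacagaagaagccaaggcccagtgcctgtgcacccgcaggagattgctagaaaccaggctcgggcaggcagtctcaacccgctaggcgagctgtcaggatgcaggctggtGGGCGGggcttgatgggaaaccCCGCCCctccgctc
Srebf1 upstream, chr11:60210472-60210721, − strand: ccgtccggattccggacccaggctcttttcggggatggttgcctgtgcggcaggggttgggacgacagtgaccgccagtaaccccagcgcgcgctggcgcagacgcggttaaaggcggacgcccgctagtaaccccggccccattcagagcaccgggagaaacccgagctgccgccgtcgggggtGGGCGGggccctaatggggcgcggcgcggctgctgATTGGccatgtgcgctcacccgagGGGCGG
The first window held 1 CCAAT match, the second 2 GGGCGG matches, and the third 1 CCAAT and 2 GGGCGG matches. *Fasn*, often used as a model target of the factor, is shown for comparison because its level did not pass the test.
Fasn upstream, chr11:120824548-120824797, − strand: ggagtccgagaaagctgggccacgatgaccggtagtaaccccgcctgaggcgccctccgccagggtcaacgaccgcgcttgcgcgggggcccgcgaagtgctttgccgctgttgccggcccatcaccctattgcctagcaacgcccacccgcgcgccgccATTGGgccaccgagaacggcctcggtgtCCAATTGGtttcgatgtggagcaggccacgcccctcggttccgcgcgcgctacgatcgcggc
It held 3 CCAAT matches, of which a pair on opposite strands overlap each other.

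The 4 motifs were searched on both strands in the window from 250 bases before to 50 bases after the start, in 9 windows of the 7 members with an entry (*Srebf1*, *Acly*, *Acaca*, *Fasn*, *Elovl5*, *Elovl6* and *Fads2*). The upstream part of the *Acaca* window (chr11:84195188-84195437) lies inside the annotated gene, which begins at 84129672 on the + strand. The region before that first annotated start was not searched. *Scd1*, *Scd2* and *Fads1* had no entry, so neither of the called members was searched. The sterol regulatory element written as TCACNCCAC was found in 0 of the 9 windows, and in 1.24% of all 32851 promoters of the table. At that share a match in so few windows would be rare, and only this exact spelling was searched. The result therefore does not show that a sterol element is absent. CCAAT was found in 5 windows of 4 members (37.4% of all promoters), CACGTG, the E-box, in 1 window, that of *Elovl5* (7.15%), and GGGCGG in 4 windows of 3 members (35.7%). A match describes the letters of a window, and no binding was measured here.

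The 3 enzymes that make palmitate did not pass the test. *Acly* (ENSMUSG00000020917, chr11:100476353-100528000) was listed at 67.4, 97.0 and 172.2 TPM without 4OHT and at 91.2, 84.7 and 56.7 TPM with it, with means of 112.2 ± 54.0 and 77.5 ± 18.3 TPM. The third OSKA − 4OHT well was the highest of the 6 and the third OSKA + 4OHT well the lowest, and the other 4 were interleaved. The log2 fold change was -0.45 with a confidence interval of -1.34 to 0.44 (adjusted p = 0.545, limma-trend).

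*Acaca* (ENSMUSG00000020532, chr11:84129672-84401651) had the lowest mean TPM of the members in both groups, at 13.3, 15.5 and 26.3 TPM in the OSKA − 4OHT wells and 19.4, 16.8 and 23.1 TPM in the OSKA + 4OHT wells. The treated wells lay within the range of the mock-treated ones, and the log2 fold change was 0.15 (-0.55 to 0.86, adjusted p = 0.805, limma-trend). With the TPM of the pseudogene *Gm5182* added to it, an alternative chosen after the data were seen, the log2 fold change was 0.091 (adjusted p = 0.883, limma-trend). *Fasn* (ENSMUSG00000025153, chr11:120805846-120824547) was listed at 120.7, 72.4 and 84.0 TPM and at 68.2, 112.4 and 88.7 TPM, means of 92.4 ± 25.2 and 89.7 ± 22.1 TPM. The highest and the lowest wells came from different groups, both of them replicate 1, and the other treated wells lay between them. Its log2 fold change was -0.037, with a confidence interval of -0.67 to 0.59 (adjusted p = 0.957, limma-trend).

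The elongases also overlapped between the groups. *Elovl5* (chr9:77917364-77984519), which lengthens polyunsaturated chains, was listed at 66.9, 65.2 and 50.1 TPM without 4OHT and at 86.4, 65.7 and 59.8 TPM with it. Only the first OSKA + 4OHT well was above the mock-treated ones, and the log2 fold change was 0.21 (-0.27 to 0.69, adjusted p = 0.593, limma-trend). *Elovl6* (chr3:129532355-129638495), which extends palmitate to stearate and so supplies the preferred substrate of the Δ9 desaturases, was listed at 23.4, 19.8 and 24.6 TPM and at 27.2, 24.1 and 37.2 TPM. The groups overlapped by 1 pair of wells (24.6 without and 24.1 TPM with 4OHT), and the log2 fold change was 0.36 (-0.16 to 0.88, adjusted p = 0.401, limma-trend).

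*Scd1* (ENSMUSG00000037071), stearoyl-CoA desaturase 1, was listed at 298.8, 187.9 and 153.6 TPM in the OSKA − 4OHT wells and at 615.9, 598.9 and 625.3 TPM in the OSKA + 4OHT wells. The lowest treated well was above the highest mock-treated well, which at 298.8 TPM stood well above the other two of its group. The treated wells were close to each other, with a coefficient of variation of 2.19%, against 35.6% in the mock-treated wells. The means were 213.4 ± 75.9 and 613.4 ± 13.4 TPM (SD, n = 3), a ratio of 2.87, and the log2 fold change of 1.58 ± 0.241 (SE, 95% confidence interval 0.997 to 2.16) had an adjusted p of 0.0196 in limma-trend. It lay at percentile 93.2 of the log2 fold changes of all tested genes.

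The size of the *Scd1* difference was kept but its call was not when a well was left out. Its log2 fold change stayed between 1.37 and 1.85. The adjusted p in limma-trend was 0.0232 without the first OSKA − 4OHT well, and it was above 0.05 without the second (0.0947) or the third (0.0611) OSKA − 4OHT well and without the first (0.103), the second (0.101) or the third (0.0832) OSKA + 4OHT well. These fits have 5 libraries, and fewer genes pass in all of them.

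*Scd2* (ENSMUSG00000025203), stearoyl-CoA desaturase 2, was the most abundant member in every well. It was listed at 317.8, 337.5 and 359.0 TPM in the OSKA − 4OHT wells and at 822.3, 849.2 and 726.1 TPM in the OSKA + 4OHT wells. The groups were separated by a gap, from 359.0 to 726.1 TPM, that is wider than the spread within either of them. The means were 338.1 ± 20.6 and 799.2 ± 64.7 TPM, a ratio of 2.36, and the log2 fold change of 1.24 ± 0.107 (SE, 95% confidence interval 0.980 to 1.50) had an adjusted p of 0.00392 in limma-trend. It passed in each of the 6 fits with 1 well left out, at adjusted p between 0.0166 and 0.0396. With the replicate number as a block it did not pass (adjusted p = 0.0599, limma-trend).

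The pair was also read as a sum, which depends less on how reads were divided within the cluster. It still depends on this in part, because TPM is corrected for length and the transcripts of these genes differ in length. The TPM of *Scd1*, *Scd2*, *Scd3*, *Scd4* and the pseudogene *AC123853.3* were added up in each well, a quantity chosen after the data were seen, which gave 616.9, 525.7 and 514.0 TPM without 4OHT and 1440.7, 1450.0 and 1354.5 TPM with it. Fitted as 1 gene in limma-trend, the sum had a log2 fold change of 1.36 (1.11 to 1.61) and an adjusted p of 0.00357. *Scd3* was listed at 0 to 0.959 TPM without and 0.505 to 1.35 TPM with 4OHT, and *Scd4* at 0.155 to 0.480 and 0.184 to 0.578 TPM. Both were below the mean of 1 TPM needed for the test, so nearly all of the summed level was *Scd1* and *Scd2*.

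**Figure D2:**
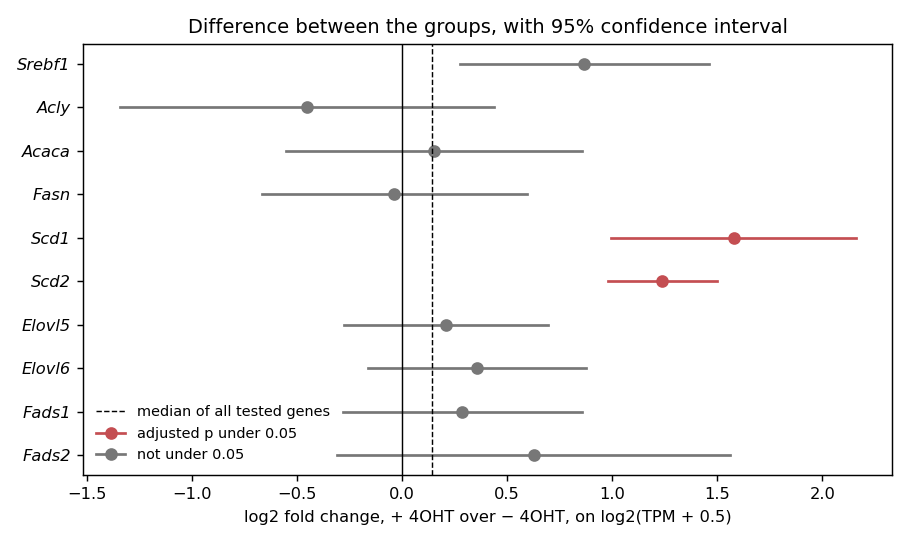
Log2 fold change of each member, OSKA + 4OHT over OSKA − 4OHT, on the log2(TPM + 0.5) scale (horizontal axis), with bars for the 95% confidence interval of limma-trend. The dashed line is the median of all tested genes (0.14), and red marks an adjusted p-value under 0.05. The intervals of *Scd1* and *Scd2* lie wholly above the dashed line, and that of *Srebf1* also lies above it although its adjusted p was 0.105.

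The front-end desaturases overlapped between the groups. *Fads1* (chr19:10182888-10196877), the Δ5 desaturase, was listed at 70.2, 89.2 and 94.3 TPM without and at 128.4, 111.3 and 75.2 TPM with 4OHT. The first and second treated wells were above the mock-treated range and the third was within it, and the log2 fold change was 0.29 (-0.28 to 0.86, adjusted p = 0.546, limma-trend). *Fads2* (chr19:10062765-10101746), the Δ6 desaturase, was listed at 26.5, 40.3 and 75.0 TPM and at 82.7, 54.0 and 66.9 TPM. The mock-treated wells were spread widely, and the third of them was higher than 2 of the treated wells. The log2 fold change was 0.63 (-0.31 to 1.56, adjusted p = 0.417, limma-trend), an interval that includes the estimate for *Scd2*.

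Ordered by mean TPM, which is corrected for length, the members ran from *Scd2* (338.1) and *Scd1* (213.4) through *Acly* (112.2), *Srebf1* (110.1), *Fasn* (92.4), *Fads1* (84.6), *Elovl5* (60.7) and *Fads2* (47.2) to *Elovl6* (22.6) and *Acaca* (18.4) in the OSKA − 4OHT group. *Scd2* was above *Scd1* without overlap of the wells, and *Scd1* was above every gene lower in the order except *Acly*. The neighbours from *Acly* to *Fads1* overlapped, as did *Elovl5* with *Fads2* and *Elovl6* with *Acaca*, and *Fads1* was above *Elovl5* without overlap. In the OSKA + 4OHT group the order was *Scd2* (799.2), *Scd1* (613.4), *Srebf1* (197.9), *Fads1* (105.0), *Fasn* (89.7), *Acly* (77.5), *Elovl5* (70.6), *Fads2* (67.9), *Elovl6* (29.5) and *Acaca* (19.8). There *Scd2* was above *Scd1*, *Srebf1* above *Fads1*, *Fads2* above *Elovl6* and *Elovl6* above *Acaca* without overlap, and the genes from *Fads1* to *Fads2* overlapped with their neighbours.

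The 10 genes together amounted to 1087, 1070 and 1142 TPM in the OSKA − 4OHT wells and to 2182, 2100 and 1930 TPM in the OSKA + 4OHT wells. Within these sums *Scd1* and *Scd2* took 56.7%, 49.1% and 44.9% without and 65.9%, 69.0% and 70.0% with 4OHT. A family of 7 quantities within a library, which do not depend on how libraries are scaled to each other, were computed after the values had been seen.

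The summed Δ9 desaturases over the summed synthesis enzymes (*Acly*, *Acaca* and *Fasn*) had ratios of 3.06, 2.84 and 1.81 without and 8.05, 6.77 and 8.02 with 4OHT, means of 2.57 ± 0.666 and 7.61 ± 0.730 (SD, n = 3). Every treated well was above every mock-treated well, as was also the case for *Scd1* over *Fasn* (1.83 to 2.59 against 5.33 to 9.03) and *Scd2* over *Fasn* (2.63 to 4.66 against 7.56 to 12.1). For these 3 ratios and the share above, the two-sided exact permutation p was 0.1, which is the smallest that 3 against 3 wells allow, and the Benjamini-Hochberg value over the 7 quantities was 0.175. Each of them draws on *Scd1* or *Scd2* values already seen to be separated, so they add no support to those calls. The ratio of *Scd1* to *Scd2* overlapped, at 0.940, 0.557 and 0.428 against 0.749, 0.705 and 0.861 (exact permutation p = 0.4). *Scd1* over *Srebf1* (exact permutation p = 0.3) and *Fads2* over *Fads1* (exact permutation p = 0.4) overlapped as well.

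**Figure D3:**
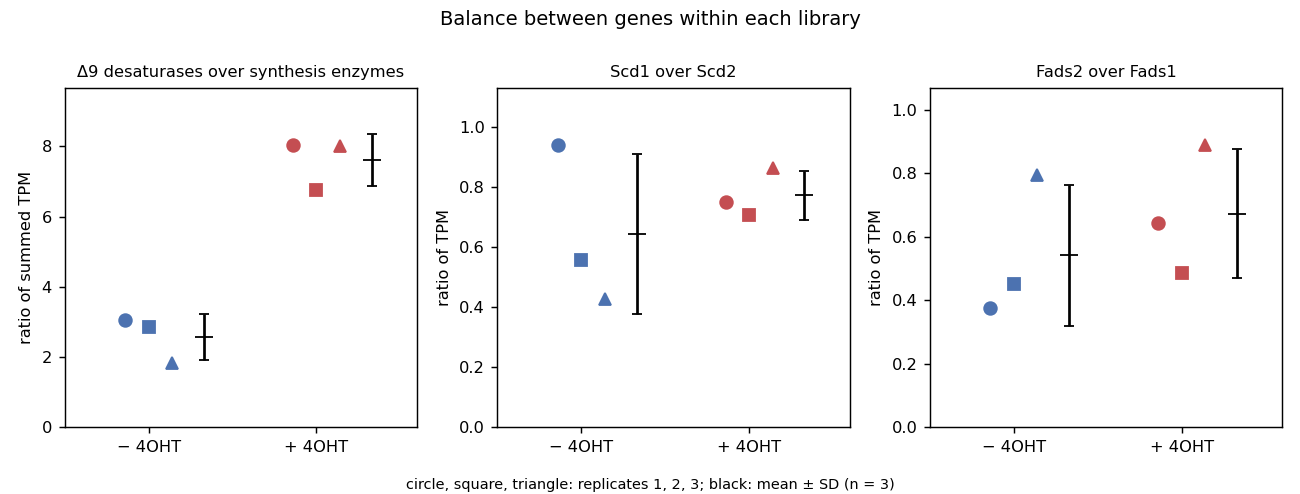
Ratios of TPM within each library (vertical axes, linear from 0) for the summed Δ9 desaturases *Scd1* and *Scd2* over the summed synthesis enzymes *Acly*, *Acaca* and *Fasn* (left), *Scd1* over *Scd2* (middle) and *Fads2* over *Fads1* (right). Symbols are wells and black bars the mean ± SD (n = 3). The groups are separate in the left panel (1.81 to 3.06 against 6.77 to 8.05) and overlap in the other panels.

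The *Scd* and the *Fads* genes form separate clusters on chromosome 19, and the genes around each cluster were read after the member values were known. Within 250 kb of the *Scd* cluster, 25 genes were listed and 8 tested. Beside *Scd1* and *Scd2*, which define the window, 1 of the 6 tested neighbours was higher at an adjusted p under 0.05 and 0 were lower, where 3.52% of all tested genes were higher and 1.97% lower. The neighbour was *Bloc1s2*, a subunit of complexes that position lysosomes and build lysosome-related organelles, listed at 35.7, 39.1 and 36.1 TPM without and 62.9, 63.1 and 54.9 TPM with 4OHT. Its log2 fold change of 0.70 (0.36 to 1.03) was smaller than those of the desaturases (adjusted p = 0.0432, limma-trend). *Chuk* (0.21), *Cwf19l1* (-0.14), *Erlin1* (-0.49), *Ndufb8* (0.38) and *Hif1an* (-0.043) did not pass.

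Within 250 kb of the *Fads* cluster, 28 genes were listed and 12 tested, and 0 passed in either direction in limma-trend. By unadjusted p under 0.05, 1 of the 12 was higher (14.1% of all tested genes were), the flap endonuclease gene *Fen1* (log2 fold change 0.65, adjusted p = 0.119, limma-trend). *Fads3*, the third gene of that cluster, was listed at 46.2, 44.0 and 25.7 TPM without and 37.9, 20.4 and 19.2 TPM with 4OHT. Its log2 fold change of -0.59 (-1.44 to 0.25) had the opposite sign to those of *Fads1* and *Fads2* and did not pass (adjusted p = 0.393, limma-trend).

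**Figure D4:**
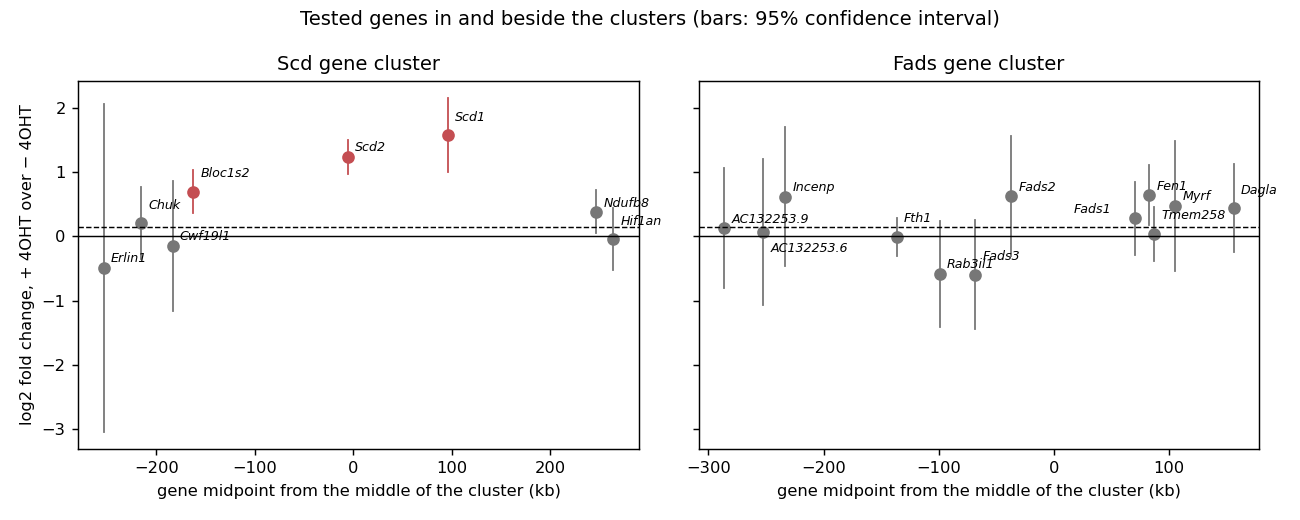
Log2 fold change, OSKA + 4OHT over OSKA − 4OHT, with the 95% confidence interval of limma-trend (vertical axis) for the tested genes within 250 kb of the *Scd* cluster (left) and the *Fads* cluster (right), by distance of the gene's midpoint from the middle of the cluster in kb. Red marks an adjusted p under 0.05, and the dashed line the median of all tested genes (0.14). *Scd1*, *Scd2* and *Bloc1s2* are red in the left panel and 0 genes in the right panel.

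The genes around the route were followed in 7 lists with 104 genes, of which 92 were tested. Only *Agpat4* and *Eci2* passed, both higher, beside 3.52% of all tested genes that were higher, and 0 passed as lower (1.97%). At an unadjusted p under 0.05, 11 list genes were higher and 5 lower, where 14.1% and 7.18% of all tested genes were.

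Of 17 regulators of the route 15 were tested and 0 passed, and their median log2 fold change was 0.57, beside 0.14 for all tested genes. The median of the regulators was 0.31 without the third OSKA + 4OHT well and 0.37 with quantile normalization. *Srebf2*, the paralog that governs cholesterol synthesis, had a log2 fold change of 0.37 (adjusted p = 0.554). *Scap*, which escorts the SREBP proteins to the Golgi, was listed at 17.2 to 21.3 TPM without and 17.3 to 53.4 TPM with 4OHT (0.77, adjusted p = 0.337). *Insig1*, itself a known SREBP target, was at 80.6 to 92.2 and 80.1 to 92.7 TPM (0.040, adjusted p = 0.895), and *Insig2* had a log2 fold change of 0.73 (adjusted p = 0.283). The liver X receptors *Nr1h2* (-0.088, adjusted p = 0.874) and *Nr1h3* (0.57, adjusted p = 0.721) did not pass. *Mlxipl*, the carbohydrate response factor ChREBP, was listed at 0 in 5 of the 6 libraries and was not tested. *Mid1ip1*, which promotes the assembly of acetyl-CoA carboxylase into filaments, had a log2 fold change of 0.21 (adjusted p = 0.645). *Thrsp* (Spot 14), its relative in lipogenic tissue, had the smallest p of the list: it was listed at 0 in all OSKA − 4OHT wells and at 2.46, 0.986 and 2.96 TPM in the OSKA + 4OHT wells (adjusted p = 0.118, limma-trend). It reached the mean of 1 TPM needed for the test only through the OSKA + 4OHT wells.

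Of 12 genes that supply acetyl-CoA and NADPH 11 were tested and 0 passed, with a median of 0.25, which was 0.13 with median-of-ratios scaling. *Slc25a1*, the mitochondrial citrate exporter, was listed at 144.6 to 155.3 TPM without and 161.0 to 194.1 TPM with 4OHT (0.25, adjusted p = 0.311). The cytosolic acetyl-CoA synthetase *Acss2* (0.16, adjusted p = 0.695) and malic enzyme *Me1* (0.12, adjusted p = 0.762) overlapped between the groups. The smallest p was that of *Pdhb*, a subunit of pyruvate dehydrogenase, at 43.5 to 53.7 and 68.1 to 79.7 TPM (0.55, adjusted p = 0.0937, limma-trend). Other subunits of the complex differed in sign, and they are named here outside the rule, after their values were seen. *Pdha1* (-0.42, adjusted p = 0.133) and *Dlat* (-0.35, adjusted p = 0.270) were below the mock-treated wells in every treated well and *Pdhx* (1.07, adjusted p = 0.0973) was above them, and none of these 3 passed.

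Of 20 further synthesis, elongation and desaturation enzymes 15 were tested and 0 passed. Their median of 0.078 turned negative with a filter of 5 TPM (-0.35), with median-of-ratios scaling (-0.040), with quantile normalization (-0.036) and without the second OSKA + 4OHT well (-0.027). *Acacb*, the carboxylase of the mitochondrial surface, was listed at 0.792 to 1.58 TPM without and 1.03 to 4.88 TPM with 4OHT (0.53, adjusted p = 0.662). *Elovl1* was the most abundant of the other elongases, at 97.9 to 116.1 and 108.4 to 133.8 TPM (0.13, adjusted p = 0.652). *Elovl4* (0.21, adjusted p = 0.812) and *Elovl7* (0.41, adjusted p = 0.563) were under 5 TPM in every library, *Elovl2* was listed at 0 in 4 of the 6 libraries, and *Elovl3* at 0 in all of them. The smallest p was that of *Cyb5r3*, the reductase that feeds electrons through cytochrome b5 to the desaturases, at 271.0, 284.9 and 268.4 TPM without and 207.6, 206.7 and 189.5 TPM with 4OHT (-0.45, adjusted p = 0.0602). Its groups did not overlap, in the opposite direction to *Scd1* and *Scd2*. *Cyb5a*, the cytochrome itself, had a log2 fold change of 0.54 (adjusted p = 0.240) and is named here outside the rule, after its value was seen.

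Of 8 genes for AMP-activated protein kinase, which phosphorylates and inhibits the carboxylases, its activator *Stk11* and malonyl-CoA decarboxylase, 8 were tested and 0 passed. Their median was 0.20, and it ran from 0.076 (without the first OSKA − 4OHT well) to 0.31 (without the second) when a well was left out, and was 0.031 with quantile normalization. The smallest p was that of the decarboxylase gene *Mlycd* (0.55, adjusted p = 0.430, limma-trend), and by unadjusted p under 0.05 the count was also 0 in both directions.

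Of 18 genes of fatty acid activation and esterification 17 were tested and *Agpat4* passed. The median was 0.0054, and it was -0.11 without the first OSKA − 4OHT well, 0.26 without the third and -0.14 with quantile normalization. *Agpat4*, an acyltransferase that makes phosphatidic acid from its lyso form, was listed at 63.0, 58.8 and 59.6 TPM in the OSKA − 4OHT wells and at 119.5, 145.2 and 99.3 TPM in the OSKA + 4OHT wells. Each treated well was above each mock-treated well, and the log2 fold change was 0.98 (0.57 to 1.39, adjusted p = 0.0288, limma-trend). Of 19 genes of fatty acid oxidation 17 were tested and *Eci2* passed. The median was 0.22, and it was 0.11 with median-of-ratios scaling, 0.14 without the second OSKA − 4OHT well and 0.36 without the third. *Eci2*, an isomerase that handles the double bonds of unsaturated chains during oxidation, was listed at 52.5, 40.7 and 46.2 TPM and at 85.4, 79.4 and 72.5 TPM, without overlap (log2 fold change 0.77, 0.39 to 1.14, adjusted p = 0.0447, limma-trend). *Cpt1a*, the carnitine palmitoyltransferase that malonyl-CoA inhibits, was at 25.5 to 34.3 and 29.8 to 33.4 TPM (0.017, adjusted p = 0.971).

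Neither call held under all settings. The adjusted p of *Agpat4* was 0.0314 without the third OSKA + 4OHT well and between 0.0649 and 0.103 without any of the other wells, and that of *Eci2* was above 0.05, from 0.0572 to 0.121, whichever well was left out (limma-trend). *Eci2* also missed the threshold with no filter (0.0532), with median-of-ratios scaling (0.0557), with quantile normalization (0.0572) and without a trend (0.0852), and *Agpat4* missed it without a trend (0.0621, all adjusted p in limma). Of 10 genes of fatty acid uptake and binding 9 were tested and 0 passed. Their median was 0.54, but it was -0.13 without the second OSKA − 4OHT well and 0.18 with a pseudocount of 2. The smallest p was that of *Lpl*, lipoprotein lipase, at 12.3, 6.75 and 6.84 TPM without and 18.2, 18.4 and 18.1 TPM with 4OHT (1.09, adjusted p = 0.0728, limma-trend).

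**Figure D5:**
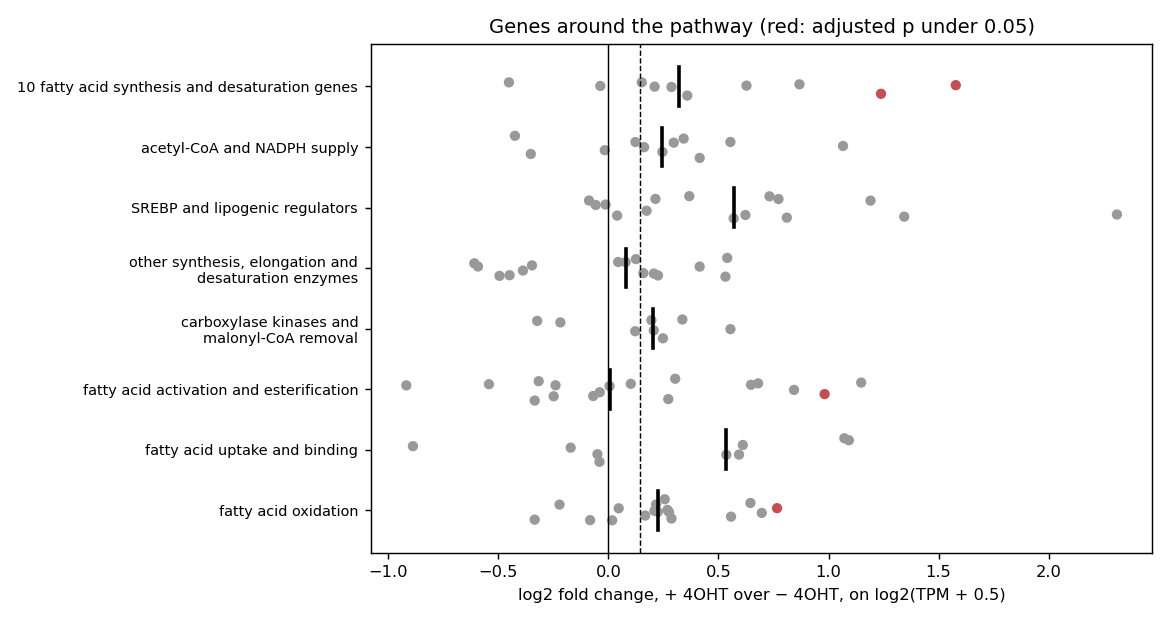
Log2 fold change, OSKA + 4OHT over OSKA − 4OHT (horizontal axis), of every tested gene among the 10 members (top line) and the 7 lists around the route. Each point is a gene, the black bar is the median of its line, the dashed line the median of all tested genes (0.14), and red an adjusted p under 0.05. Red points are *Scd1* and *Scd2* among the members, *Agpat4* in activation and esterification, and *Eci2* in oxidation.

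Marker genes of several cell states differed between the groups, and their part in the results above was not tested. The summed level of 9 fibroblast markers was 9779 to 11331 TPM in the OSKA − 4OHT wells and 6240 to 7531 TPM in the OSKA + 4OHT wells. Of these 9, all tested, 4 were lower (*Col1a2*, *Pdgfrb*, *Fn1* and *S100a4*) and *Col3a1* was higher, where 1.97% of all tested genes were lower and 3.52% higher. The sum of 11 pluripotency markers was 28.6 to 44.6 and 126.9 to 149.0 TPM, with 6 of 9 tested genes higher (3.52% of all tested genes) and *Dppa3* at 0 in all libraries. Of the higher ones, *Nanog*, *Zfp42* and *Dppa5a* were tested only because of their level in the OSKA + 4OHT wells. The sum of 9 proliferation markers was 574 to 692 and 855 to 1147 TPM, with 5 of 9 tested genes higher (3.52% of all tested genes). In RNA from whole wells, a change in the share of cells of a type and a change in the RNA per cell cannot be told apart.

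Of 9 adipocyte markers, *Adipoq*, *Plin1*, *Cidec*, *Lep*, *Cfd* and *Retn* were at 0 in all 6 libraries, whereas *Pparg*, *Cebpa* and *Lipe* were detected. The 9 markers summed to 2.66 to 7.49 TPM without and 5.13 to 19.0 TPM with 4OHT, most of it *Pparg* and *Lipe*. These 2 genes were tested and 0 were called. Their log2 fold changes were 0.066 for *Pparg* (adjusted p = 0.971) and 1.56 for *Lipe* (adjusted p = 0.280, limma-trend). The sum of 7 macrophage markers was 123 to 136 and 79.8 to 91.5 TPM. Most of it was *Lyz2*, the only one called (90.1 to 101.2 and 46.5 to 60.7 TPM, lower, beside 1.97% of all tested genes). The log2 fold change was positive for 3 and negative for 4 of the 7 genes.

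The deposited values add up to 1000000 TPM in each library, so the sequencing depth behind a value is not kept and no counting interval is given. The number of genes above 0 ran from 15814 to 17692 without and from 17578 to 18230 with 4OHT, the lowest being that of the first OSKA − 4OHT well, in which *Scd1* and *Fasn* were the highest of their group. Of all tested genes, 542 were higher and 303 lower, so that 64.1% of the called genes were higher, and under median-of-ratios scaling 462 were higher and 468 lower (49.7% higher). That scaling moved the median over all tested genes from 0.14 to 0.035 (log2 fold change), and *Scd1* (1.46) and *Scd2* (1.12) remained higher under it.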

How the data were processed

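Standard polyA RNA libraries of 6 wells (3 per group) were sequenced with 50-base single-end reads. The authors trimmed the reads with Trim Galore and quantified them with Salmon, and the deposited values are TPM per Ensembl gene and well. The versions, the annotation release and the strand setting are not given in the sources used here. Columns of the authors' own comparison (fold change, average level, test statistic and p-value) were not used. Symbols and coordinates came from GENCODE M21 (GRCm38) by Ensembl identifier, with a symbol for 54097 of 54331 genes.

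Genes averaging 1 TPM or more were tested on log2(TPM + 0.5) with limma-trend (limma 3.58.1, R 4.3.3) over all 6 libraries without a block, with Benjamini-Hochberg adjustment over the 15382 genes. Fold changes on this scale understate the change of low genes. Calls were made at adjusted p-values under 0.05. Ratios within a library were compared by exact two-sided permutation (Python 3.11.15, scipy 1.17.1), and coding sequences aligned with Biopython 1.88. Coding sequences replaced the planned comparison of proteins, which was not run.

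The members and lists were chosen with earlier results of these data known. Named genes are the members, called genes of each list (otherwise the gene with the smallest p) and regulators, isoforms and neighbouring steps of the route listed by symbol whatever their result. Cyb5a, Pdha1, Dlat, Pdhx, Fen1, Bloc1s2 and the other genes beside the clusters fall outside this rule. The alternatives were other pseudocounts, filters, scalings and variance models, the replicate block and leaving out each well. The summed gene copies, the ratios and the neighbouring genes were added after the data were seen.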

Additional observations from a re-analysis of the deposited data

How the results depend on the processing

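The direction of *Scd1*, *Scd2*, *Srebf1*, *Acly*, *Elovl5*, *Elovl6*, *Fads1* and *Fads2* was the same in all 17 alternative settings, but the size of the uncalled ones moved with single wells. Leaving out 1 well gave -0.76 to -0.090 for *Acly*, 0.056 to 0.32 for *Elovl5*, 0.18 to 0.49 for *Elovl6*, 0.12 to 0.51 for *Fads1*, 0.28 to 1.02 for *Fads2* and 0.68 to 1.09 for *Srebf1*. Over the 10 that neither left out a well nor added the block, the adjusted p in limma ran from 0.0104 to 0.0475 for *Scd1* and from 0.00246 to 0.0217 for *Scd2*, so both kept their call. *Acaca* and *Fasn*, both near 0, changed sign: *Acaca* was -0.014 with quantile normalization and -0.043 without the first OSKA − 4OHT well, and *Fasn* was 0.021 with array weights, 0.17 without the first OSKA − 4OHT well and 0.15 without the first OSKA + 4OHT well. With each well left out, *Acaca* ran from -0.043 to 0.44 and *Fasn* from -0.21 to 0.17.

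The correlations of same-numbered wells were all positive but small (0.0235, 0.0341 and 0.0837). Every mock-treated well correlated best with the treated well of its own number. So did every treated well except the first, which correlated better with the second mock-treated well (0.0327). The replicate numbers thus paired the wells weakly at most, and whether same-numbered wells belong together was not tested. With the replicate number as a block, 31 genes were higher and 16 lower, 0 of the 10 members and 0 pathway list genes were called, *Scd1* (1.58) had an adjusted p of 0.0834 and *Scd2* (1.24) of 0.0599 in limma-trend. The block leaves fewer residual degrees of freedom, and its cause was otherwise not tested.

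With each well left out in turn, 137 to 357 genes were higher and 68 to 148 lower, 1 to 2 members and 0 to 2 pathway list genes were called, and *Scd1* ran from 1.37 to 1.85 and *Scd2* from 1.19 to 1.31. In the same fits the list medians ran from 0.31 to 0.59 for the regulators, from -0.027 to 0.19 for the further synthesis enzymes, from -0.11 to 0.26 for activation and esterification, from -0.13 to 0.72 for uptake and binding, from 0.076 to 0.31 for the carboxylase kinases and from 0.14 to 0.36 for oxidation. The lowest count came without the first OSKA + 4OHT well (137 higher, 68 lower), and the uptake median was negative without the second OSKA − 4OHT well.

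Median-of-ratios scaling gave 468 lower genes, and a median of 0.13 for the acetyl-CoA and NADPH list and -0.040 for the further synthesis enzymes. Quantile normalization gave 428 higher and 434 lower genes (49.7% higher), a median of 0.37 for the regulators, -0.036 for the further synthesis enzymes and -0.14 for activation and esterification, and 1 pathway list gene called. A filter of 5 TPM gave -0.35 for the further synthesis enzymes, which tests fewer of them, and a pseudocount of 2 gave 0.18 for uptake. Without a filter or without a trend 1 pathway list gene was called, and with array weights 5. The cause of these shifts was not tested. Depth is not kept in TPM, so values near 0 carry an unknown counting error.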
